A study of Mus musculus with 6 samples.

Results

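The genes followed here encode 9 integrin subunits of leukocytes: the α chains Itga4, Itga6, Itgae, Itgal and Itgav and the β chains Itgb1, Itgb2, Itgb3 and Itgb7. They were picked by mouse symbol from the 11221 genes in the deposited expression table. Their reads were taken by Ensembl identifier from the count tables, which list 46983 genes. All 9 were found and all 9 passed the filter on low counts. Total RNA was depleted of ribosomal RNA and sequenced from naïve CD4 T cells, sorted from lymph nodes as living TCRb+, CD4+, CD62L+ and CD44- cells. The 3 control samples came from male C57B6/J-background mice with the Rnmt fl/fl CD4cre - genotype, and the 3 Rnmt cKO samples from male mice with the Rnmt fl/fl CD4cre + genotype. Both groups carried the floxed Rnmt alleles, and only the Rnmt cKO cells carried Cre, which is driven by Cd4 regulatory sequence and acts from the double-positive thymocyte stage onwards. Presence of Cre and loss of Rnmt therefore coincide and cannot be told apart. RNMT is the methyltransferase that completes the mRNA cap, and the comparison asks how much of each integrin mRNA naïve T cells hold when it is deleted.

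Integrins are αβ heterodimers that join a cell to its neighbours and to the matrix. On a circulating naïve T cell they are held in a low-affinity state, and signals from chemokine receptors or the T cell receptor act through the GTPase RAP1, talin and kindlin to switch them on, so that the cell can arrest on a vessel wall and enter a lymph node. αLβ2 binds the ICAMs, α4β1 binds VCAM1 and fibronectin, α4β7 binds the mucosal addressin MADCAM1, α6β1 binds laminin, αV with β3 or β1 binds RGD-containing ligands and latent TGFβ, and αEβ7 binds E-cadherin on epithelia.

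The libraries held between 8873413 and 11277764 reads on the sense strand of genes. Rnmt, the deleted gene, had 438, 588 and 524 counts in the control and 397, 444 and 297 in the Rnmt cKO libraries. This was a fall of 0.67 on the log2 scale (SE 0.20, adjusted p = 0.00035, edgeR exact test). The counts cover the whole gene, of which only part is floxed, so that reads from the remaining exons stay in them. The study reports that reads over the floxed exon were lost in naïve Rnmt cKO cells. How much intact Rnmt mRNA was left was not tested here. The 8 naïve CD4 T cell markers were all measured, with summed levels of 4523 to 4834 CPM in control and 5309 to 5909 CPM in Rnmt cKO cells. Of 9 memory and effector markers 4 were measurable, with Id2 (log2 fold change 0.91) and Il2rb (0.39) higher and Cd44, whose protein the sort gates on, lower (-1.05), and the 9 summed to 154 to 162 CPM in control and 167 to 198 CPM in Rnmt cKO libraries. The stromal and endothelial markers overlapped between groups (284 to 320 against 309 to 332 CPM). Nearly all of this sum was Pecam1, with means of 300.4 and 319.5 CPM. Cdh5, Kdr, Col1a1 and Col1a2 were each under 1 CPM in every library. The share of uniquely mapped reads that lay in no gene ran from 31.8% to 47.9% and did not follow the groups: control replicates 1 and 2 and Rnmt cKO replicate 3 had 36.1%, 39.7% and 31.8%, and the other 3 libraries had 46.1% to 47.9%. Values within these low and high sets are given beside the results they touch. The labels do not state that each sample is a separate animal, so that the p-values measure the spread between these samples, and with 3 against 3 an exact permutation test cannot go below 0.10.

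Since the cap joins the first transcribed base, the annotated starts of the integrin genes are shown with it. RefSeq start windows on GRCm38.p6 were at hand for 4 of the 9 genes, Itga4 at chr2:79255416-79255435 on the plus strand, Itgav at chr2:83724387-83724406 on the plus strand, Itgb1 at chr8:128685644-128685663 on the plus strand and Itgb7 at chr15:102231926-102231945 on the minus strand. Each is printed 5′ to 3′ with 10 bases before the start in lower case and the first 10 transcribed bases in capitals.
Itga4: cggggccacaGAAACGGGGC
Itgav: gacttcctctTTCGGCGGGG
Itgb1: ggaggaatgcGTTTCCGGAG
Itgb7: agggtgtgtcACTTCCTCCT
None of the 4 annotated transcripts opened with C, the base that begins a terminal oligopyrimidine tract. Among 16199 protein-coding genes matched in the same source, 14.0% opened with C and 2.22% opened with C followed by a pyrimidine run of at least 5 bases, C included. Of 61 cytoplasmic ribosomal protein genes, whose mRNAs are the textbook carriers of such a tract, 20 opened with C in this annotation, so that the annotated start misses many of them and a missing C says only that it is not at this position.

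All 9 integrin mRNAs were present in both groups, over a wide range of levels. Levels between genes were compared as RPKM, TMM-scaled CPM (the counts of a gene relative to the library size) per kilobase of exon. Itgb7 was the most abundant, at 221.6 ± 13.6 RPKM in control cells (mean ± SD, n = 3 here and in the following values), above 98.5% of the protein-coding genes tested. Itgb2, the β chain shared by the leukocyte-specific integrins, followed at 160 ± 5.10 RPKM. Itga6 had 71.4 ± 0.320 RPKM and Itga4 55.8 ± 3.19 RPKM. Itgal lay at 41.0 ± 3.49 RPKM. Below them came Itgb3 at 31.5 RPKM, Itgb1 at 15.6 RPKM, Itgav at 8.51 RPKM and Itgae at 1.45 RPKM, and Itgae stood above 12.7% of protein-coding genes. No 2 neighbours in this order overlapped in the control libraries, the closest being Itga6 and Itga4 with a ratio of 1.28 between their means. The order of the means was the same in the Rnmt cKO libraries, where Itga6 and Itga4 did overlap, at 61.4 ± 5.54 and 60.1 ± 3.78 RPKM. β1, the chain with the most partners across tissues, thus ranked below β7, β2 and β3 in these cells.

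**Figure D1:**
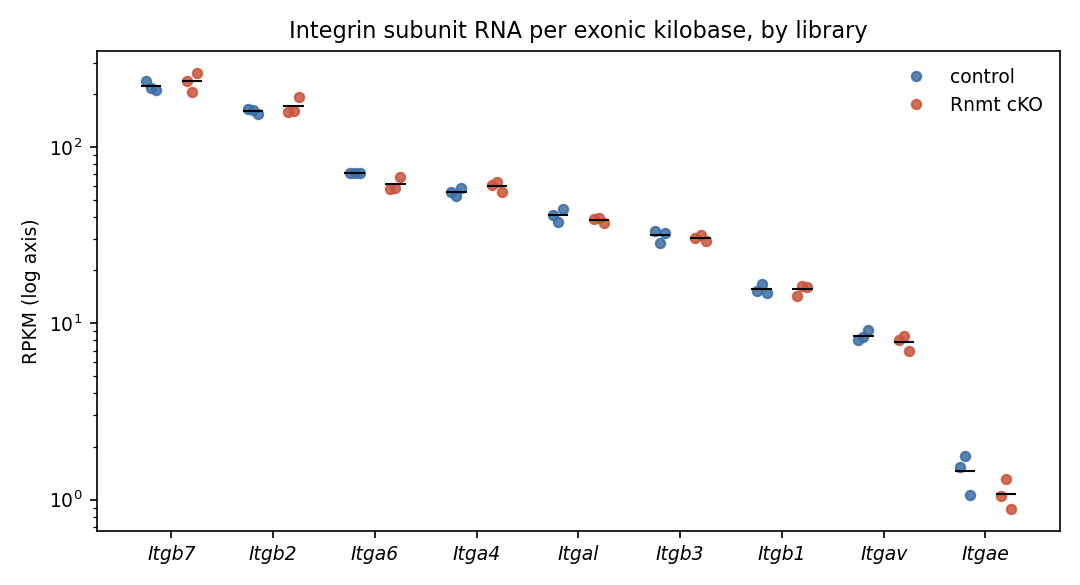
Level of each integrin mRNA in each library, in RPKM on a log axis, with genes in order of their control mean; points are single control and Rnmt cKO libraries and bars are group means. Itgb7 and Itgb2 sit at the top, Itgae lies far below the rest, and the 2 groups overlap for every gene but Itga6.

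None of the 9 integrin mRNAs passed an adjusted p of 0.05 between Rnmt cKO and control cells, where 1831 of 12336 genes did (14.8%; 8.00% higher and 6.84% lower; without scaling between libraries 1938 higher and 535 lower). The count was also 0 by edgeR's quasi-likelihood test and by DESeq2, and 1 gene, Itga6, had an unadjusted p under 0.05, against 25.0% of all genes. Their log2 fold changes (Rnmt cKO over control, on TMM-scaled counts) ran from -0.42 to 0.11 with a median of -0.04, and the median over all genes was 0.01. In size they had a median of 0.09, against 0.17 over all genes. Among the 3536 genes with a mean level at least that of the lowest integrin but Itgae, well covered by reads as these are, 15.2% passed. The 538 of them that passed had a median change of 0.41 in size, and the smallest was 0.25. Apart from Itgae, the 95% intervals from limma voom lay within -0.41, the lower bound of Itga6, and 0.31, the upper bound of Itgb7. Itga6 was the single gene whose groups did not overlap, with Rnmt cKO lower, where 31.4% of all genes had groups apart and 14.9% had them apart with Rnmt cKO lower. Without scaling between libraries the median over all genes moved to 0.14 and that of the integrins to 0.09, and Itgal, Itgav, Itgb1 and Itgb3 changed sign, still with 0 called.

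**Figure D2:**
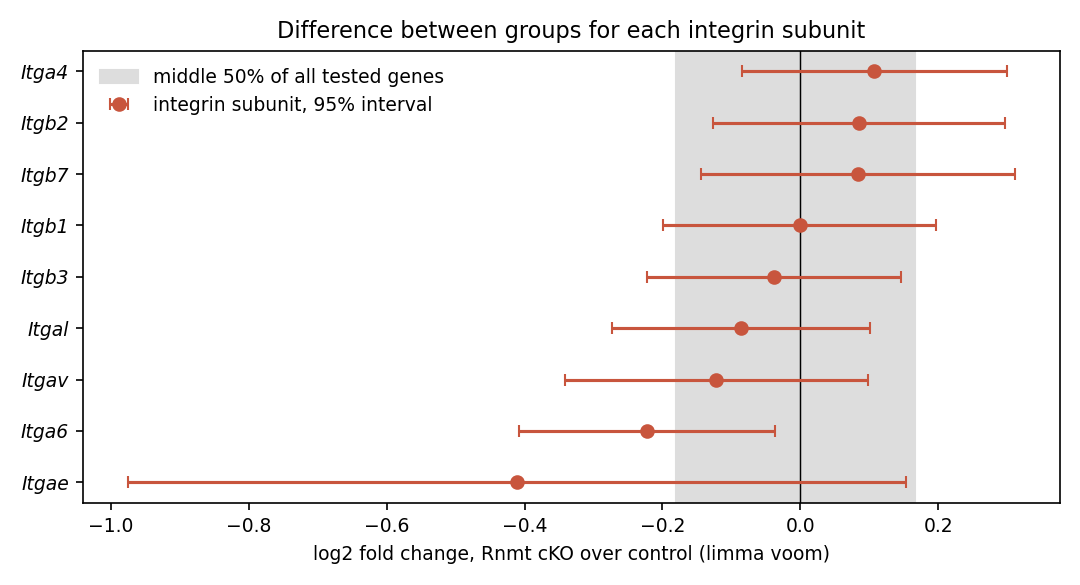
Log2 fold change of each integrin mRNA, Rnmt cKO over control, with points for the estimate and bars for the 95% interval from limma voom; the shaded band holds the middle 50% of all 12336 genes, -0.18 to 0.17. Itga6 is the single interval that excludes 0, from -0.41 to -0.04, and Itgae has the widest, from -0.98 to 0.15.

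αLβ2 is the integrin with which T cells adhere to ICAM-bearing cells. Itgal (ENSMUSG00000030830, chr7:127296260-127335138, mm10), its α chain, had 262.0, 239.1 and 283.6 CPM in the control and 248.9, 252.6 and 236.4 CPM in the Rnmt cKO libraries. Rnmt cKO replicates 1 and 2 lay inside the control range and replicate 3 just under it. The log2 fold change was -0.09 (SE 0.08, adjusted p = 0.661, edgeR exact test), with an interval of -0.27 to 0.10. Itgb2 (ENSMUSG00000000290, chr10:77530252-77565708), its partner, had 487.3, 479.9 and 458.2 CPM against 467.4, 475.8 and 575.5 CPM. Only Rnmt cKO replicate 3 stood above the controls. The log2 fold change of Itgb2 was 0.09 (SE 0.10, adjusted p = 0.691), with an interval of -0.13 to 0.30, and it was -0.03 without that replicate.

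The α4 chain pairs with β1 for entry to inflamed tissue and with β7 for homing to the gut. Itga4 (ENSMUSG00000027009, chr2:79255426-79333123) had 544.7, 513.4 and 575.7 CPM in control and 597.9, 617.2 and 545.8 CPM in Rnmt cKO libraries. Rnmt cKO replicates 1 and 2 were above every control, and replicate 3 lay among the controls. The log2 fold change was 0.11 (SE 0.07, adjusted p = 0.577, edgeR exact test), with an interval of -0.08 to 0.30. Itgb7 (ENSMUSG00000001281, chr15:102215995-102231944) had 635.3, 583.5 and 564.9 CPM against 632.6, 554.7 and 710.8 CPM. Here Rnmt cKO replicate 2 was the lowest of all 6 libraries and replicate 3 the highest. The log2 fold change of Itgb7 was 0.09 (SE 0.12, adjusted p = 0.718), with an interval of -0.14 to 0.31, and it was -0.02 without replicate 3. For both β2 and β7 the higher Rnmt cKO mean thus rested on the same library, the 1 Rnmt cKO library with a low share of reads in no gene. Within the libraries with a low share the difference was 0.25 for Itgb2 and 0.22 for Itgb7, and within those with a high share 0.04 and 0.07.

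Itga6 (ENSMUSG00000027111, chr2:71745616-71858416), the laminin-binding α6 chain, had 310.8, 310.4 and 313.0 CPM in control libraries and 252.8, 254.9 and 295.6 CPM in Rnmt cKO libraries. The controls were nearly equal, and all Rnmt cKO values were below them, replicates 1 and 2 by more than replicate 3. The means were 311.4 ± 1.40 and 267.7 ± 24.1 CPM, a log2 fold change of -0.22 (SE 0.07, unadjusted p = 0.0295, adjusted p = 0.138, edgeR exact test) with an interval of -0.41 to -0.04, which is 0.754 to 0.975 of the control level. Without Rnmt cKO replicate 3 the log2 fold change was -0.31 with an adjusted p of 0.000957, and it passed in 2 of 17 alternatives in all. The control values were level over shares of reads in no gene from 36.1% to 46.1%, whereas the highest Rnmt cKO value came from the library with the lowest share, so that the difference was -0.07 among the 3 libraries with a low share and -0.30 among the 3 with a high share. With that share as a covariate, the other alternative in which Itga6 passed, the log2 fold change was -0.21 (adjusted p = 0.0125, edgeR quasi-likelihood test).

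Itgb1 (ENSMUSG00000025809, chr8:128685654-128733200), the β1 chain, had 58.2, 63.7 and 57.0 CPM in control and 54.6, 62.4 and 61.7 CPM in Rnmt cKO libraries. The groups lay on top of each other, at 59.6 ± 3.57 and 59.6 ± 4.30 CPM. The interval of the difference was -0.20 to 0.20. The sign of this difference changed with the settings and carries no direction.

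Itgav (ENSMUSG00000027087, chr2:83724397-83806916), the αV chain, had 56.5, 58.8 and 64.8 CPM against 56.7, 60.0 and 49.2 CPM. Only Rnmt cKO replicate 3 lay below the controls. The log2 fold change was -0.12 (SE 0.10, adjusted p = 0.578, edgeR exact test), with an interval of -0.34 to 0.10. Itgb3 (ENSMUSG00000020689, chr11:104608000-104670476), the β3 chain best known from platelets, had 193.3, 165.7 and 188.0 CPM in control and 177.4, 184.3 and 170.1 CPM in Rnmt cKO libraries, with every Rnmt cKO value inside the control range. Its log2 fold change was -0.04 (SE 0.08, adjusted p = 0.873), with an interval of -0.22 to 0.15. The platelet genes Pf4, Ppbp and Gp9 had 0 counts in all 6 libraries and Gp1ba had 1 count in total. The erythroid genes of the same list were detected and lower in Rnmt cKO libraries. Hbb-bs had means of 3.98 CPM in control and 0.756 CPM in Rnmt cKO libraries, and Hba-a1 1.20 and 0.0352 CPM. Both passed the filter on low counts only through the control libraries, the group in which they are high. The part of other cells in the Itgb3 counts was not tested.

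Itgae (ENSMUSG00000005947, chr11:73090583-73147446), the αE chain or CD103, which marks CD8 T cells, regulatory T cells and tissue-resident cells, was barely present. It had 50, 68 and 37 counts in the control and 38, 60 and 38 in the Rnmt cKO libraries, or 5.88, 6.79 and 4.09 CPM against 4.02, 5.06 and 3.41 CPM. Control replicate 3 lay among the Rnmt cKO values, and the other controls lay above them. The log2 fold change was -0.42 (SE 0.26, adjusted p = 0.364, edgeR exact test), with an interval of -0.98 to 0.15, the widest of the 9. It was -0.85 among the libraries with a low and 0.14 among those with a high share of reads in no gene. Markers of the cells known for CD103 differed between the same libraries. Foxp3, the regulatory T cell factor, fell from 25.4 ± 2.30 to 13.5 ± 1.22 CPM, and the 6 regulatory T cell genes summed to 228 to 272 CPM in control and 197 to 217 CPM in Rnmt cKO libraries, with 2 of 6 lower. Cd8a and Cd8b1 were both lower, with sums of 21.7 to 23.3 CPM against 13.5 to 17.3 CPM. Fewer such cells and less RNA per cell cannot be told apart in bulk RNA, here or for any gene above, and the part of these cells in the Itgae values was not tested. The locus also carried 128 antisense counts beside 291 sense counts, 30.5% of the total, from the strand on which Haspin lies within Itgae. The 2 genes share no exon bases, and counting without strand moved the log2 fold change of Itgae to -0.30.

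As a sum, the 9 integrin genes held slightly more of the gene counts in Rnmt cKO cells. They took 0.233%, 0.237% and 0.245% of sense gene counts in the control and 0.266%, 0.264% and 0.262% in the Rnmt cKO libraries. Every Rnmt cKO share was above every control share (exact permutation test, two-sided, p = 0.10). These shares are not scaled between libraries. Without such scaling the median log2 fold change over all tested genes was 0.14 and that of the 9 integrins 0.09, so that a rise in share is not particular to them. After TMM scaling the summed levels overlapped, at 2421 to 2554 CPM in control and 2467 to 2649 CPM in Rnmt cKO libraries. Split by chain, the 5 α chains summed to 178 ± 7.07 RPKM in control and 169 ± 1.92 RPKM in Rnmt cKO libraries (exact permutation p = 0.10), and the 4 β chains to 428.7 ± 19.0 and 452.5 ± 46.3 RPKM (exact permutation p = 0.60). The highest Rnmt cKO α sum, 171.05 RPKM, lay just under the lowest control sum, 171.31 RPKM. Among the α chains the largest move was that of Itga6, from 71.4 to 61.4 RPKM, while Itga4 went up from 55.8 to 60.1 RPKM. Itgal went from 41.0 to 38.5, Itgav from 8.51 to 7.84 and Itgae from 1.45 to 1.08 RPKM. The lower α sum is thus mainly the Itga6 difference again.

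Whether the subunits of a heterodimer kept their proportions was asked from the RPKM ratio of α to β chain within each library, which does not depend on scaling between libraries. For αLβ2 the ratio was 0.257 ± 0.0287 in control and 0.229 ± 0.0325 in Rnmt cKO cells, a log2 difference of -0.17 (SE 0.15). For α4β7 it was 0.252 ± 0.0241 and 0.259 ± 0.0474, and for α4β1 it was 3.58 ± 0.403 and 3.86 ± 0.409. Both β2 and β7 mRNAs were thus several-fold in excess of their main α partners, and β1 mRNA was below its partners α4 and α6. The α6β1 ratio showed the single separation of groups, with 4.67, 4.26 and 4.80 in control and 4.05, 3.57 and 4.19 in Rnmt cKO libraries, a log2 difference of -0.22 (SE 0.09, exact permutation p = 0.10). The ratios of αV to β3, 0.271 ± 0.0274 and 0.255 ± 0.0160, and of αV to β1, 0.547 ± 0.0608 and 0.504 ± 0.0664, overlapped between groups. The αE to β7 ratio was 0.00654 ± 0.00154 and 0.00471 ± 0.00153, so that αE mRNA was below 1% of β7 mRNA in every library. Over the 7 pairs the exact permutation p ran from 0.10 to 1, and none was under 0.583 after Benjamini-Hochberg adjustment.

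**Figure D3:**
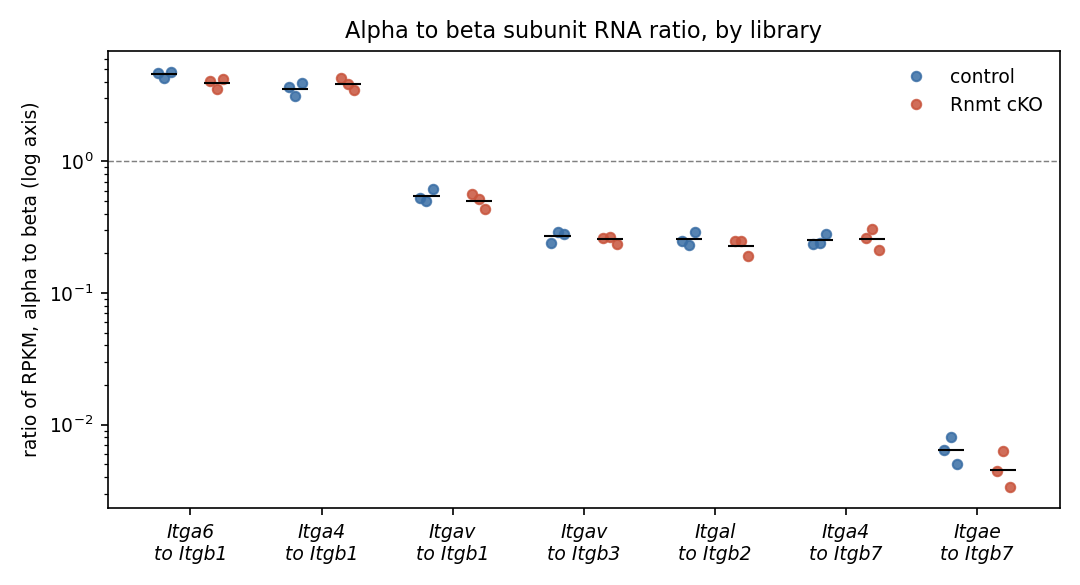
RPKM ratio of α to β chain within each library for 7 heterodimers, on a log axis; points are single libraries, bars are geometric means and the dashed line marks a ratio of 1. β2 and β7 exceed αL and α4, β1 lies below α4 and α6, and α6β1 is the single pair whose groups do not overlap.

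Of the other genes of the pathway, 8 of 48 passed the test, 3 higher and 5 lower, where 14.8% of all genes passed. Itgad, the αD chain of myeloid cells, is left out of these counts and described by itself, since the filter favoured it. It had 0, 3 and 3 counts in control and 16, 24 and 21 counts in Rnmt cKO libraries, so that it passed the filter only through the Rnmt cKO libraries, the group in which it is high. Pooled over each group and set against library size, Itgad was 8.63-fold higher, with a 95% interval of 3.75 to 24.4 that covers counting error only. Counted without strand, its log2 fold change was 2.19 in place of 3.04. With no filter, over 27286 genes, its adjusted p was 1.82e-06 (edgeR exact test). Of the 18 other integrin subunits 9 more passed the filter. Itga9 (log2 fold change 0.69, adjusted p = 0.111), Itgam (0.65, adjusted p = 0.312) and Itgb8 (-0.69, adjusted p = 0.197) had groups that did not overlap but did not pass. Of all tested genes 31.4% had groups apart. The filter, which used CPM before TMM scaling, leaned on the Rnmt cKO libraries for Itgam too. Itgam was over 1 CPM in each of them but, with 9 counts each, under 1 CPM in control replicates 1 and 2. For Itgb8 the filter leaned on the control libraries, since Rnmt cKO replicate 3, with 11 counts, was under 1 CPM. Itga2 (-0.55), Itga2b (0.47), Itga3 (-0.17), Itga5 (-0.24), Itga7 (0.01) and Itga10 (-0.24) did not pass either, with adjusted p of 0.389 or more. Of 6 listed myeloid markers 2 were measurable and 1 was higher. This was Lyz2, at 3.17, 2.00 and 3.09 CPM in control and 5.18, 13.8 and 5.92 CPM in Rnmt cKO libraries. Cd68 had groups apart but did not pass (adjusted p = 0.082, edgeR exact test). Csf1r, Adgre1, Fcer1g and Tyrobp were too low to be tested, and their groups overlapped. The 6 markers summed to 5.09 to 6.74 CPM against 9.32 to 22.0 CPM, and their part in the Itgad counts was not tested.

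Among 13 tested genes that switch integrins on, 1 was higher and 1 lower, with a median log2 fold change of 0.07. For this list and the next, the shares over all tested genes were 8.00% higher and 6.84% lower. Rasgrp2, which encodes the exchange factor that loads RAP1 with GTP, rose from 287.9 ± 17.1 to 377.1 ± 59.8 CPM (log2 fold change 0.39, SE 0.14, adjusted p = 0.0158, edgeR exact test). Skap1, an adaptor that carries RAP1 effectors to the membrane, fell by 0.26 on the log2 scale, from 391.6 ± 16.3 to 328.1 ± 6.54 CPM (adjusted p = 0.0437). The most abundant of the list, Rap1b (-0.10, adjusted p = 0.624), Fyb (0.07, adjusted p = 0.746) and Stk4 (0.14, adjusted p = 0.436), did not pass. Talin 1, Tln1, had a log2 fold change of -0.19 (adjusted p = 0.304), and kindlin-3, Fermt3, had 0.05 (adjusted p = 0.849), both named after their values were seen. All 8 genes listed as restraining integrins were tested, with a median of 0.04, and 1 was higher, Dok1, an adaptor that competes for β tails, which rose from 14.4 ± 2.99 to 21.5 ± 3.67 CPM (log2 fold change 0.58, adjusted p = 0.0191). Flna, Cytip and Rasa3, the most abundant of this list, had log2 fold changes of -0.09, 0.21 and -0.03 and did not pass.

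Among 14 tested genes that tie integrins to the cytoskeleton and to signalling, 3 were lower and 0 higher, with a median of -0.06. Of all tested genes 6.84% were lower and 8.00% higher, and the list was not tested as a set. Ptk2, which encodes focal adhesion kinase, had 15.5, 14.4 and 18.0 CPM in the control and 7.40, 6.50 and 7.44 CPM in the Rnmt cKO libraries. Every Rnmt cKO value lay well under the lowest control. Its log2 fold change was -1.17 (SE 0.11, adjusted p = 4.72e-09, edgeR exact test), and it passed in all 17 alternatives. Actn4, an α-actinin, fell from 134.3 ± 5.19 to 108.7 ± 11.4 CPM (-0.30, adjusted p = 0.0248), and Evl, an actin regulator of the Ena/VASP family, fell from 319.4 ± 24.5 to 263.7 ± 7.72 CPM (-0.28, adjusted p = 0.0374). Actn1 (0.03) and Vasp (-0.04) are also among the most abundant of the list and did not pass. Of 4 tested ligand genes, which T cells themselves can express, Icam1 rose from 25.0 ± 2.77 to 33.5 ± 3.00 CPM (0.42, adjusted p = 0.0131), and Icam2 fell from 47.4 ± 4.90 to 34.6 ± 6.98 CPM (-0.45, adjusted p = 0.0218). Tgfb1 had a log2 fold change of 0.24 and an adjusted p of 0.0698. B cell markers were higher in the same libraries as Icam1, with 4 of 6 called and sums of 34.2 to 40.3 against 43.7 to 74.9 CPM, and their part was not tested.

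Of these 8 calls only that of Ptk2 held whichever library was left out. The other 7 calls were lost without at least 3 of the 6 libraries in turn. Rasgrp2 was not called without any 1 control library or without Rnmt cKO replicate 1 (log2 fold change 0.25, adjusted p = 0.17), and Dok1 was not called without control replicate 3 (0.42, adjusted p = 0.147) or without Rnmt cKO replicate 2 or 3. Skap1 held only without Rnmt cKO replicate 3, and so did Actn4. Evl held only without control replicate 3 or Rnmt cKO replicate 3, and Icam2 did likewise. Icam1 was not called without control replicate 2 or 3 or Rnmt cKO replicate 2.

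**Figure D4:**
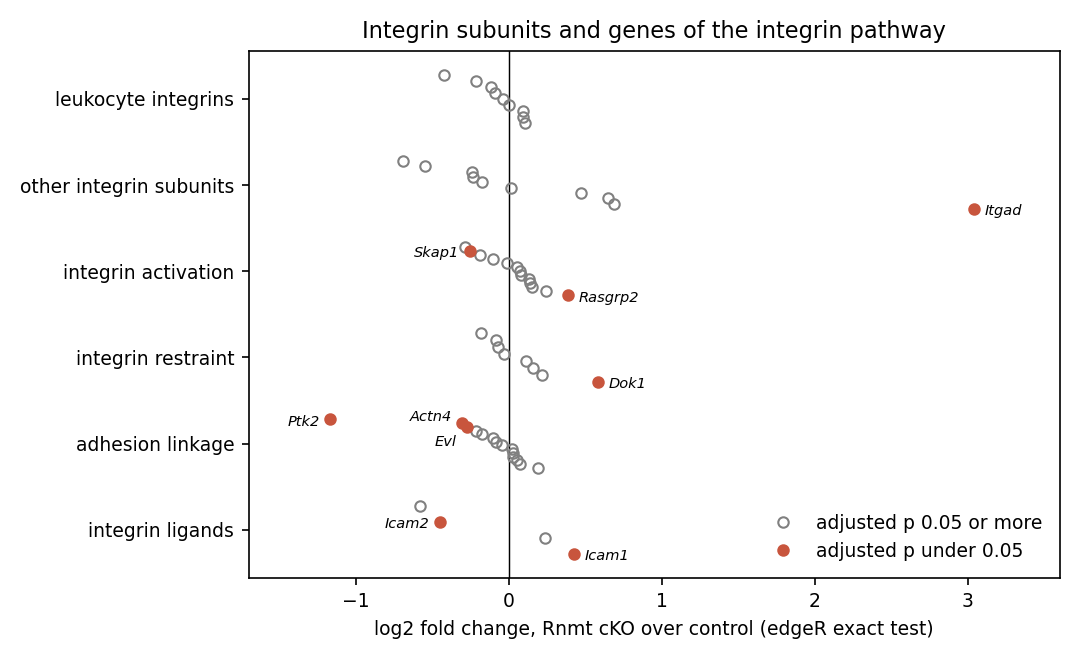
Log2 fold changes, Rnmt cKO over control, of the tested genes in each list, with filled points for genes past an adjusted p of 0.05 and a line at 0. The 9 leukocyte integrins lie between -0.42 and 0.11 with none past the threshold, while Ptk2 at -1.17 and Itgad at 3.04 stand farthest from 0, Itgad having passed the filter only through the Rnmt cKO libraries.

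Across the 6 libraries the integrin genes did not form a common pattern. Over their 36 pairs the Pearson r of log2 CPM had a median of -0.02 and none was over 0.9. The highest values were 0.824 for Itgb2 with Itgb7 and 0.814 for Itgal with Itgb3, and the lowest was -0.927 for Itgav with Itgb7. These points share libraries, depth and scaling, and with n = 6 they are a description. Among 9697 genes the closest in pattern were Tmem131 to Itga4 (r = 0.995), Pdcd4 to Itga6 (0.995), Prrc1 to Itgae (0.985), Nr2c1 to Itgal (0.995) and Ppp3cb to Itgav (0.992). For the β chains they were Wls for Itgb1 (0.963), Eif3d for Itgb2 (0.997), 1110051M20Rik for Itgb3 (0.976) and Nelfa for Itgb7 (0.992). With 6 libraries such values are reached by many genes, from 9 genes over 0.9 for Itgb1 to 458 for Itga6.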

How the data were processed

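Per the labels, reads of 3 control and 3 Rnmt cKO libraries were aligned by the authors with STAR 2.5.2b to mm10, and the deposited tables hold raw read counts per gene of the GENCODE vM12 basic annotation, unstranded and for each strand. The column of sense counts was used, since 100% of the genes in the deposited expression table were proportional to it (tolerance 0.001). That table also holds signal values that the authors made as read counts divided by 1 constant per library, which served only for this check, and fold changes and p-values of their own comparison, which were not used. Reads in no gene (31.8% to 47.9% of uniquely mapped reads) stayed out of library sizes. Multimapped reads are not in the counts.

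Genes over 1 CPM in at least 3 samples were kept, TMM scaling was applied, and the groups were compared with the edgeR 4.0.16 exact test over all 12336 genes at a Benjamini-Hochberg adjusted p of 0.05. The test, the CPM minimum and the threshold follow the methods of the study, whose scaling between libraries is not given in the sources used here, and the deposited table holds 11221 genes. Intervals came from limma 3.58.1 voom. RPKM were TMM-scaled CPM per kilobase of the union of exons in GENCODE vM21 basic, which gave 46488 of 46983 genes a length and is a later release than that of the counts. Log2 CPM for likeness used a prior count of 2 and genes with a mean of at least 5 CPM. Alternatives were DESeq2 1.42.0, quasi-likelihood, voom, other scaling and filters, unstranded counts, a replicate block, a covariate and leaving out each library in turn. The fits were tested on simulated data. Libraries of the same group were compared by chi-square, which gave 3.64 to 22.9 per degree of freedom, so that none is a copy of another within counting error. The 9 integrin genes and all gene and marker lists were chosen with earlier results of these data known. Named beside them were every gene past the threshold in the pathway lists, the 3 most abundant of each list, every other tested integrin subunit and the closest gene in pattern. The interval of a pooled count covers counting error only.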

Additional observations from a re-analysis of the deposited data

How the results depend on the processing

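The count of integrin genes past the threshold stayed at 0 under other scaling, filters, unstranded counts, the quasi-likelihood test, DESeq2, voom and the replicate block, with Itgae not tested under a minimum of 10 CPM. It was 1, Itga6, with the share of reads in no gene as a covariate (log2 fold change -0.21, adjusted p = 0.0125), and ran from 0 to 1 when each library was left out, with 1 without Rnmt cKO replicate 3. The median over the 9 genes was 0.0876 without scaling between libraries, where the median of all genes was 0.14, and -0.11 to -0.019 with each library left out. The count of called pathway genes, Itgad included, was 9 in the reported fit, 4 by quasi-likelihood, 3 by voom, 17 with the covariate and 2 to 9 with each library left out. Over all genes the count was 1831 as reported, 3162 with the covariate and 1190 to 2506 with each library left out. The cause was not tested. Replicate numbers did not pair the libraries (correlations of the same-numbered deviations -0.213, -0.0164 and -0.345), and the replicate block left 2 pathway genes and 707 genes in all, with 0 of the 9 integrins. Without scaling, Itgal was 0.037, Itgav 0.0072, Itgb1 0.12 and Itgb3 0.088. Itgb1, at -0.00039 as reported, was 0.0023 with no filter, 0.0039 with over 1 CPM in all 6 libraries and 0.0071 with the covariate. Itga7 was -0.0019 by DESeq2. With each library left out, Itgb1 ran from -0.042 to 0.055, Itgb2 from -0.028 to 0.14, Itgb3 from -0.11 to 0.0023, Itgb7 from -0.020 to 0.17, Itga7 from -0.069 to 0.086, Itga10 from -0.44 to 0.059 and the α4 to β7 ratio from -0.10 to 0.16 on the log2 scale. Within the libraries with a low share of reads in no gene the α4 to β7 ratio differed by -0.18, and within those with a high share the αE to β7 ratio differed by 0.073. The counts of Itgae, 37 to 68 in each library, limit what could be seen of it.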

Other observations

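The genes of the αM, αX and αD chains lie side by side on chromosome 7, 0.728 to 0.819 Mb beyond the end of Itgal on mm10, and all pair with β2. Itgam had 9, 9 and 11 counts in control and 14, 23 and 17 counts in Rnmt cKO libraries. Itgax, which was too low to be tested, had 5, 5 and 0 counts against 12, 22 and 8 counts. Every Rnmt cKO library was above every control in both genes, as for Itgad with 0, 3 and 3 against 16, 24 and 21 counts. Itgal, their neighbour, had overlapping groups. Of all tested genes 16.6% had groups apart with Rnmt cKO higher. Both Itgam and Itgad met the filter on low counts with the help of the Rnmt cKO libraries, where they were high. The summed myeloid markers were 5.09 to 6.74 CPM in control and 9.32 to 22.0 CPM in Rnmt cKO libraries, and their part in these counts was not tested.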
